A study of Mus musculus with 16 samples.

Results

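Transcripts of 5 lysosomal proteases, the cathepsins Ctsk, Ctss, Ctsz and Ctsh and the asparaginyl endopeptidase legumain (Lgmn), were followed in mouse tibialis anterior, a fast muscle of the lower leg. They were taken by gene symbol from a deposited table of 831 genes, and all 5 were found there. RNA was sequenced from whole muscle (total RNA in the labels) at postnatal day 30 in 4 genotypes with 4 libraries each. The first genotype, mdx/miR-133b-/-, carried both the dystrophin mutation mdx (mdx-/- in the labels) and a homozygous loss of the microRNA miR-133b. The second carried mdx alone, the third miR-133b-/- alone, and the fourth, Control, was wild type. Both alleles are present in every cell of the animal, so no cell type is singled out by the genotype, and mdx muscle is a model in which fibres break down and regenerate in young animals. The labels do not say whether each library stands for an animal of its own, and a p-value here speaks only to the spread among libraries, part of which may be technical.

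Lysosomal cysteine proteases are made as inactive precursors, sorted to the lysosome and activated there by acid and by other proteases, legumain among them. They break down proteins taken up from outside the cell or delivered by autophagy. Macrophages, which enter dystrophic muscle and clear dead fibres, carry large amounts of several of them, and some are secreted and cleave matrix proteins such as collagen and elastin.

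Some properties of the table bear on every value. All 831 listed genes differ at least 1.72-fold, in one direction or the other, between the mean of mdx/miR-133b-/- and the mean of miR-133b-/-, so that contrast, and in part each one that uses those libraries, was used in choosing the genes. The difference between mdx and Control uses neither group, but its SE and p-value rest on a spread estimated from all 16 libraries, the selecting ones included. Fitted to the mdx and Control libraries alone, all 5 proteases were also called in that comparison, beside 646 of the 831 listed genes. Values are read counts multiplied by 1 factor per library, between 0.459 and 1, and are called scaled reads here. The listed genes held between 2356990 and 6000033 reads per library, and the smallest count of a protease in any library was 20 reads. Libraries were assigned by the code in their title. In 14 of the 16 samples the description field holds the code of another sample, and when groups were drawn from those codes none of the 831 genes passed in any comparison (the 5 proteases are given so under the processing alternatives). Neither Dmd nor miR-133b is among the listed genes, so the genotypes could not be checked on the mutated genes themselves. All 5 listed genes of regenerating fibres were called higher in mdx than in Control, beside 44.5% of all listed genes. Their median log2 difference was 2.92, where all listed genes had 0.44. Their summed level was 777 to 7254 scaled reads in mdx/miR-133b-/- and 1591 to 5809 in mdx. In miR-133b-/- it was 102 to 268 and in Control 199 to 283. The mdx/miR-133b-/- and miR-133b-/- sums come from the contrast used in choosing the genes and are a description. Of the 5 regenerating fibre genes, Myog was not called in mdx minus Control with relative log expression factors (0.87, limma adjusted p = 0.0761) or without any one of mdx libraries 1, 2 and 3 and Control libraries 1 and 2.

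The microRNA lost in both miR-133b-/- genotypes is shown here with its seed, bases 2 to 8, in capitals, because the question put to each protease is whether its transcript moved when miR-133b was absent. The mature sequence lies at chr1:20682834-20682855 on the plus strand (RefSeq, GRCm38.p6).

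miR-133b-3p: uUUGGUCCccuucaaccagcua

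A transcript that pairs with this seed holds the letters GGACCAA. No annotated 3' untranslated region of the 5 proteases (8 transcripts with an annotated stop codon, GENCODE M21) holds them. Of the 779 listed genes with an annotated 3' untranslated region, 89 (11.4%) do.

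All 5 proteases were higher in mdx than in Control muscle, and in each of the 5 genes the 4 mdx libraries lay wholly above the 4 Control libraries. The sizes ran from 1.79-fold for Ctsz to 14.3-fold for Ctss. Each difference passed limma's test on log2(scaled reads + 1) with Benjamini-Hochberg adjustment over the 831 genes, whose threshold was an adjusted p of 0.05. Among all listed genes 44.5% were called higher in mdx, and 46.2% had mdx libraries wholly above Control, so calls in this direction were common in the table. The median log2 difference of all listed genes was 0.44, and the 5 proteases stood at 0.84 to 3.84. Fold changes here are on the scale of scaled reads + 1.

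Cathepsin S, a protease that stays active near neutral pH and trims the invariant chain Cd74 in antigen-presenting cells, had the widest range. Ctss was at 733, 121, 906 and 541 scaled reads in mdx/miR-133b-/- muscle. It was at 449, 590.3, 884 and 434 scaled reads in mdx muscle. It was at 43.0, 27.1, 14.7 and 81.0 scaled reads in miR-133b-/- muscle and at 128, 30.95, 27.1 and 20.2 in Control muscle. The second mdx/miR-133b-/- library was low and the first Control library was high, and these 2 overlapped, whereas every mdx library lay above every Control library. The log2 difference between mdx and Control was 3.84 (SE 0.60, limma adjusted p = 6.6e-05), a 14.3-fold difference with a 95% interval of 6.03 to 34.0. By size it ranked 8th of the 831 listed genes. Without the first Control library the log2 difference was 4.41. Ctss lies at chr3:95526786-95556403 on the plus strand (GRCm38), and a processed pseudogene on the same strand, Hmgb1-ps5, overlaps 557 bases of its span, so reads shared between them are uncertain.

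Cathepsin K is the collagen-cleaving protease best known from osteoclasts and is also made by fibroblasts. Ctsk lies next to Ctss, at chr3:95499256-95509362 on the same strand, with 17423 bases between them. Its level was 379, 241, 358 and 112 scaled reads in mdx/miR-133b-/- muscle. It was 309.6, 279, 253 and 365 in mdx muscle, 136, 173, 76.5 and 108 in miR-133b-/- muscle, and 79.3, 94.8, 117 and 111 in Control muscle. The fourth mdx/miR-133b-/- library stood as low as Control, while the mdx libraries were all above 250 scaled reads. The log2 difference between mdx and Control was 1.58 (SE 0.32, limma adjusted p = 0.000501), or 2.98-fold.

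Cathepsin Z, a carboxypeptidase that removes single residues from the carboxyl end of proteins, differed least. Ctsz was at 598, 280.3, 561 and 435 scaled reads in mdx/miR-133b-/- muscle. It was at 427, 455, 469 and 422 in mdx muscle, 295, 265, 223 and 272 in miR-133b-/- muscle, and 324, 242, 215 and 219 in Control muscle. The mdx libraries lay within 1.11-fold of each other. The log2 difference between mdx and Control was 0.84 (SE 0.22, limma adjusted p = 0.00309), or 1.79-fold. With relative log expression factors that difference for Ctsz was 0.48, close to the threshold (limma adjusted p = 0.0438). Its gene, chr2:174427493-174439039 on the minus strand, overlaps Nelfcd, on the other strand, by 10 bases.

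Cathepsin H is chiefly an aminopeptidase. Ctsh was at 546, 235, 500.1 and 307 scaled reads in mdx/miR-133b-/- muscle. It was at 399, 387, 485 and 386 in mdx muscle, 139, 206, 146 and 171 in miR-133b-/- muscle, and 178, 201, 137 and 137 in Control muscle. The libraries carrying mdx were all above 230 scaled reads and those without it all at or below 206 scaled reads. The log2 difference between mdx and Control was 1.35 (SE 0.25, limma adjusted p = 0.000218), or 2.56-fold. Ctsh lies at chr9:90054152-90076089 on the plus strand.

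Legumain, which cuts after asparagine and processes the precursors of other lysosomal proteases, was the most abundant. Lgmn was at 1859.7, 966, 1449.6 and 1246 scaled reads in mdx/miR-133b-/- muscle. It was at 1344, 1680.4, 2117 and 1692 in mdx muscle, 465, 455, 539 and 896 in miR-133b-/- muscle, and 779, 721, 649 and 661 in Control muscle. No library carrying mdx reached down to any without it, although the fourth miR-133b-/- library came close to the second mdx/miR-133b-/- library. The log2 difference between mdx and Control was 1.27 (SE 0.23, limma adjusted p = 0.000211), or 2.41-fold. Lgmn lies at chr12:102394084-102439813 on the minus strand.

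**Figure D1:**
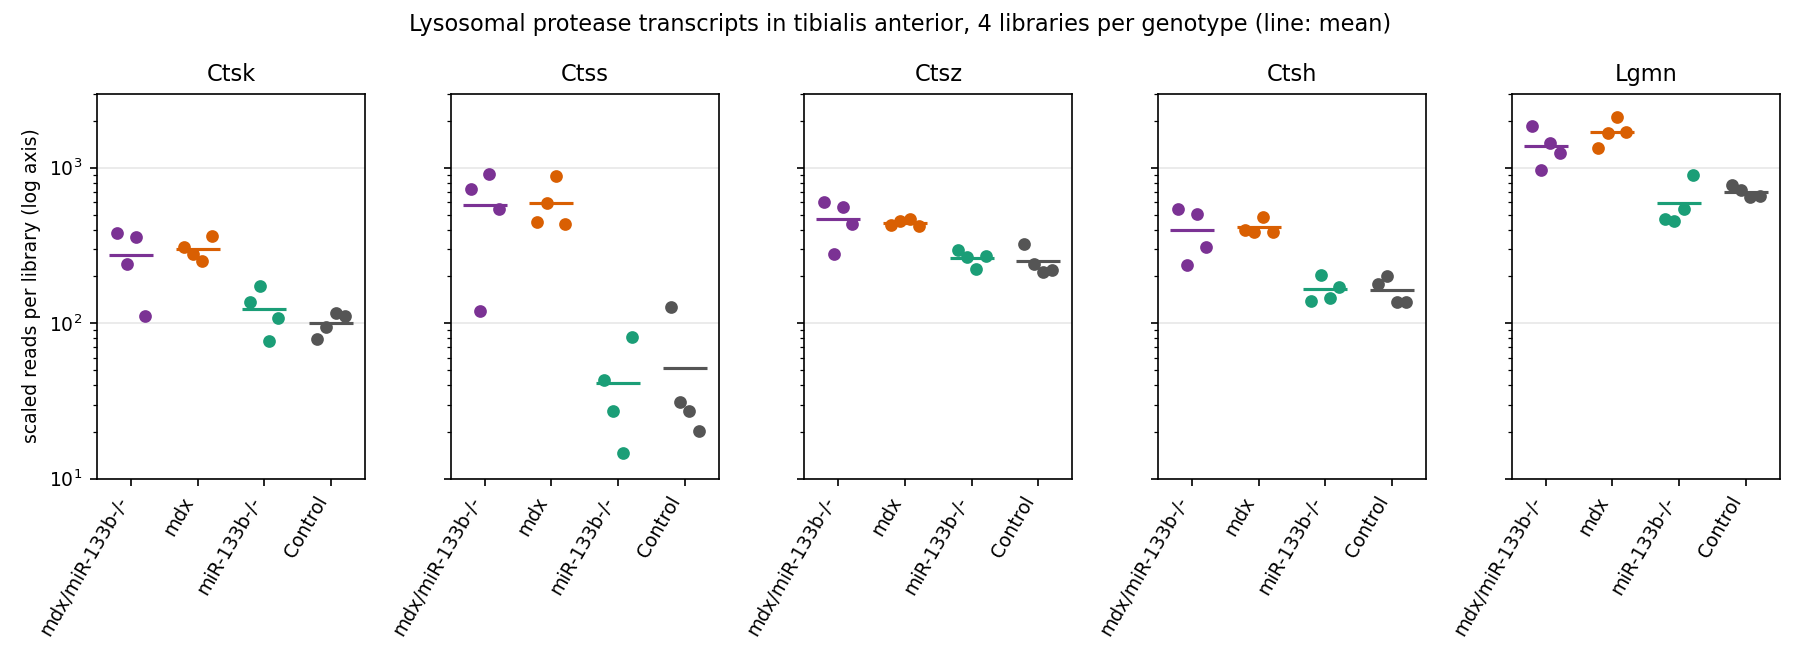
Scaled reads (log axis) of the 5 proteases in each of the 16 libraries, with the genotypes on the x axis, 1 point per library in order of replicate number and the mean as a line. In all 5 panels the 4 mdx libraries lie above the 4 Control libraries, and in mdx/miR-133b-/- a different library is lowest for Ctsk (replicate 4) than for the other genes (replicate 2).

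The promoters of 4 proteases are given, as the set of RefSeq promoters used here held no entry for Ctsh. The 4 are shown because Ctss and Ctsk are neighbours on the chromosome with log2 differences of 3.84 and 1.58 in mdx minus Control, beside 0.84 for Ctsz and 1.27 for Lgmn on other chromosomes. Each sequence runs from 250 bases before to 50 bases from the RefSeq start on, 300 bases in all (GRCm38.p6), read 5' to 3' on the strand of the gene. Capitals mark matches, on either strand, to any of 6 short motifs: GAGGAA (bound by PU.1 and other Ets factors), CACGTG (the E-box core of lysosomal gene promoters), the interferon response letters (2 copies of GAAA with any 2 bases between them), TGANTCA (AP-1), TATAAA (the core promoter box of that name) and GGGCGG (GC box). For Lgmn the window of the RefSeq start nearest the annotated 5' end is given. The windows are, in order, chr3:95526536-95526835 (plus strand), chr3:95498960-95499259 (plus), chr2:174438990-174439289 (minus) and chr12:102439679-102439978 (minus).

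Ctss: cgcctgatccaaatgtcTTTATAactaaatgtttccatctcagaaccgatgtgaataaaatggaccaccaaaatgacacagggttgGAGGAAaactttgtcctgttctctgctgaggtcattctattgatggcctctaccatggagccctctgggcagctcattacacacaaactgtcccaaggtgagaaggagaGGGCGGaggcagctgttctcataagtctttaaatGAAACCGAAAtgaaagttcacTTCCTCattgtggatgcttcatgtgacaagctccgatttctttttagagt
Ctsk: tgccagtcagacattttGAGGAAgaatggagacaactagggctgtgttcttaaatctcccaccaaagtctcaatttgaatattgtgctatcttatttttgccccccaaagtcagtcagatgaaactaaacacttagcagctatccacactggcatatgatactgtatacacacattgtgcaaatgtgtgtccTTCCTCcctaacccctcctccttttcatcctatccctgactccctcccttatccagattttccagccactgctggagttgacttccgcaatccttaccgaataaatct
Ctsz: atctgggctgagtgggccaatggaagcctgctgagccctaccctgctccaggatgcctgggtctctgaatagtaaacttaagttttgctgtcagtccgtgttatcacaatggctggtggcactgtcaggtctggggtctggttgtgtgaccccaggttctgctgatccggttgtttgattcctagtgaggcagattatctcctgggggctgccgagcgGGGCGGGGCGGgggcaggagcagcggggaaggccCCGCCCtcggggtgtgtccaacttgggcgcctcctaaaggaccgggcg
Lgmn: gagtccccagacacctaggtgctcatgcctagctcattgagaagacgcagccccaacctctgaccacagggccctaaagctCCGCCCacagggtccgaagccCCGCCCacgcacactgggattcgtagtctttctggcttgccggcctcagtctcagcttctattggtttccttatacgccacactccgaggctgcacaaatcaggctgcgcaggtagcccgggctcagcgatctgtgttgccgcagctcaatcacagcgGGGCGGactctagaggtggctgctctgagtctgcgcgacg

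The Ctss window held GAGGAA at position -164 from the start and, on the other strand, at position 1, the interferon response letters at -21, a GC box at -55 and a TATA match on the other strand at -233. The Ctsk window held GAGGAA at -233 and, on the other strand, at -58, and none of the other motifs. The Ctsz window held 3 GC boxes, the first 2 of which overlap, and so did the Lgmn window, with 3 apart. The second Lgmn start in RefSeq had a CACGTG at -49 and a TATA match on the other strand at -37. G and C made up 44.0% of the Ctss window and 43.7% of the Ctsk window, against 61.0% of the Ctsz and Lgmn windows. Of 32851 RefSeq promoters of this length, 28.3% held GAGGAA, 7.15% CACGTG, 3.44% the interferon response letters, 7.81% TGANTCA, 13.6% TATAAA and 35.7% GGGCGG. A match describes the letters in the window and was not tied to any factor by these data.

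The order of the proteases by transcript level was compared after dividing by the length of the longest coding transcript (1355 bases for Ctss to 1990 for Lgmn). Lgmn was highest per kilobase in all 16 libraries. Ctss moved through the order: it was second in all 4 mdx libraries and in 3 mdx/miR-133b-/- libraries, but the lowest in the remaining mdx/miR-133b-/- library (replicate 2), in all 4 miR-133b-/- libraries and in 3 Control libraries, and the last but one in the first Control library. Of the summed scaled reads per kilobase of the 5 genes, Ctss made up 20.96% ± 8.90 in mdx/miR-133b-/-, 20.7% ± 4.08 in mdx, 4.15% ± 2.18 in miR-133b-/- and 4.80% ± 4.03 in Control muscle (SD, n = 4 each). The share of Ctsz was 17.6% ± 1.10, 15.1% ± 1.63, 26.8% ± 4.14 and 23.6% ± 1.45 in the same order of genotypes, and that of Lgmn 38.4% ± 5.75, 41.6% ± 2.24, 42.1% ± 8.41 and 48.5% ± 2.51. The sum itself was 1869 ± 657 scaled reads per kilobase in mdx/miR-133b-/-, 2056 ± 321 in mdx, 693 ± 129 in miR-133b-/- and 732 ± 102 in Control muscle.

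**Figure D2:**
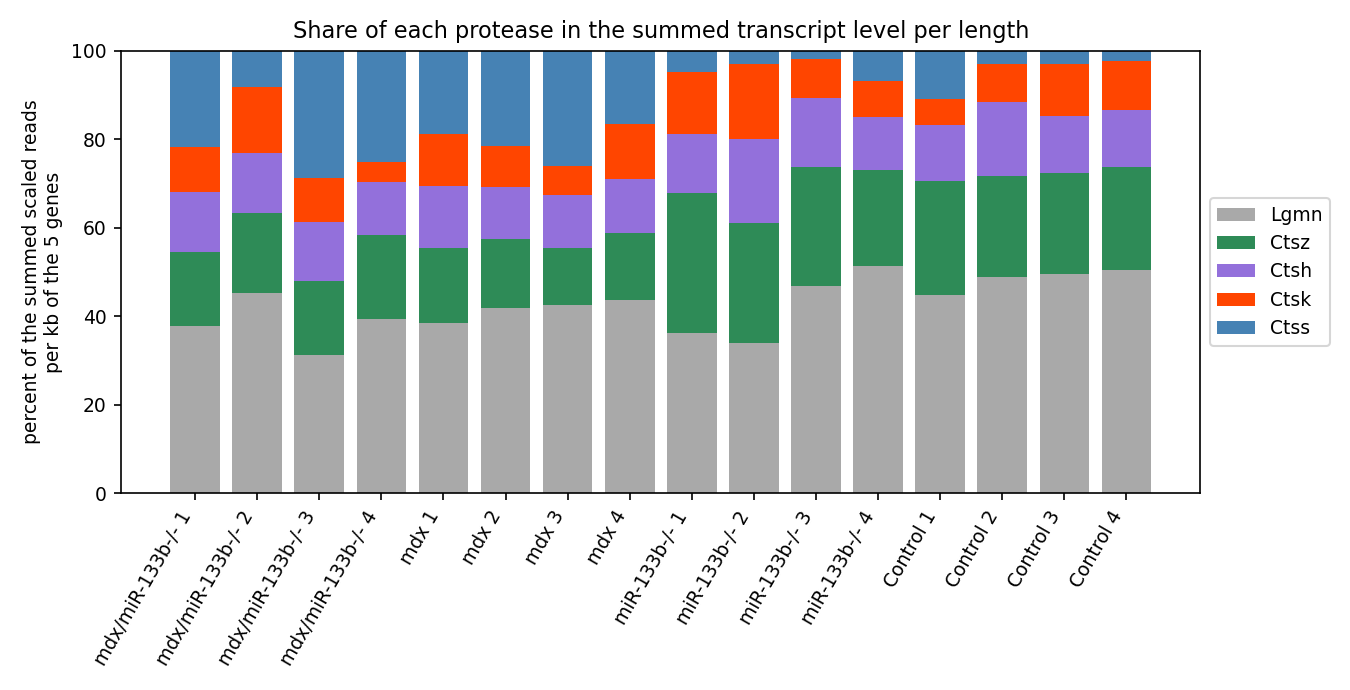
Percent of the summed scaled reads per kilobase of the 5 genes (y axis, 0 to 100) that each protease took in each library (x axis, 1 bar per library). Ctss takes 16.5% to 26% of each mdx bar and 2.26% to 10.8% of each Control bar.

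Whether the proteases differed in size of change was tested on their log2 ratios within a library, which library scaling moves only through the added 1. Over the 10 pairs, an exact two-sided permutation test of 4 mdx against 4 Control libraries (smallest p allowed 0.0286) was adjusted by Benjamini-Hochberg. None of the 10 passed. With the smallest exact p in 5 of the 10 pairs, the adjusted p cannot go below 0.0571, so the test could not decide on those pairs. The lowest adjusted p was 0.0571. It was reached by 5 pairs whose libraries did not overlap: the log2 ratio was higher in mdx by 3.0 for Ctss over Ctsz, by 2.57 for Ctss over Lgmn and by 2.49 for Ctss over Ctsh. For Ctsz over Ctsh the ratio was -0.51 and for Ctsz over Lgmn -0.43, mdx minus Control. For Ctsk over Ctss the difference was -2.26 with an exact p of 0.0857 (adjusted 0.122), the first Control library overlapping the mdx libraries.

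The proteases were also higher in mdx muscle without miR-133b. The mdx/miR-133b-/- libraries took part in the choice of the listed genes, so these values are a description. In mdx/miR-133b-/- muscle all 5 proteases were called higher than in Control, with log2 differences of 3.53 for Ctss, 1.30 for Ctsk, 1.22 for Ctsh, 0.94 for Lgmn and 0.86 for Ctsz (limma adjusted p between 6.7e-05 and 0.00141). In that comparison 54.3% of the listed genes were called higher and 44.9% had libraries wholly above Control. Only Ctsh and Lgmn of the 5 were wholly separate. The second mdx/miR-133b-/- library and the first Control library set the overlap of Ctss and of Ctsz, and the fourth mdx/miR-133b-/- library that of Ctsk. Without the second library the Ctss difference was 4.17. This comparison and that of mdx share their Control libraries.

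Against miR-133b-/- muscle, the contrast on which the table was chosen, mdx/miR-133b-/- muscle was at log2 differences of 3.69 for Ctss, 1.246 for Lgmn, 1.19 for Ctsh, 1.05 for Ctsk and 0.77 for Ctsz. Without the second mdx/miR-133b-/- library the Ctss difference was 4.32. All 5 were called, as were all 831 listed genes in one direction or the other, so nothing is read from these calls. Of the listed genes 59.9% were called higher and 47.9% lay wholly above, and these values are a description. With relative log expression factors in place of those of the authors, Ctsk (0.50, limma adjusted p = 0.105) and Ctsz (0.22, 0.299) were no longer called there.

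Loss of miR-133b gave no call in any of the 5, with or without mdx. Between mdx/miR-133b-/- and mdx muscle the means ± SD were 575.1 ± 338 and 589 ± 208 scaled reads for Ctss, 272 ± 123 and 302 ± 48.4 for Ctsk, and 469 ± 144 and 443 ± 22.4 for Ctsz (n = 4 each). For Ctsh they were 397 ± 149 and 414 ± 47.6, and for Lgmn 1380.4 ± 376 and 1708 ± 317. The log2 differences were -0.31 for Ctss (95% interval -1.55 to 0.94), -0.28 for Ctsk (-0.95 to 0.39), 0.02 for Ctsz (-0.43 to 0.48), -0.14 for Ctsh (-0.65 to 0.38) and -0.33 for Lgmn (-0.81 to 0.15). Without the second mdx/miR-133b-/- library the Ctss difference was 0.33 and that of Ctsh 0.09, and without the fourth that of Ctsk was 0.10, each with the sign turned. Limma's adjusted p was 0.346 or more with all libraries, and the smallest unadjusted p was 0.166. Among all listed genes 19.5% were called in one direction or the other. The intervals allow a Ctss level from 0.341 to 1.92 times that of mdx, so differences within that range were not excluded by these libraries. For Ctsz they span 0.741 to 1.39 times. After removal of the GC and length trend the Ctsz log2 difference was 0.54 (limma adjusted p = 0.165), above the upper end of that interval.

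Between miR-133b-/- and Control muscle the means ± SD were 41.5 ± 28.8 and 51.5 ± 51.1 scaled reads for Ctss, 124 ± 41.2 and 101 ± 17 for Ctsk, and 264 ± 30.1 and 250 ± 50.5 for Ctsz. They were 165 ± 30.2 and 163 ± 31.9 for Ctsh, and 589 ± 208 and 702 ± 60.1 for Lgmn (n = 4 each). The log2 differences ran from -0.31 for Lgmn to 0.25 for Ctsk, and all groups overlapped. Of the listed genes 0% passed limma's adjusted threshold, as with limma-voom on the read counts, and 84 had an unadjusted p under 0.05, none of them a protease. The interaction, which is the difference between mdx/miR-133b-/- and mdx less that between miR-133b-/- and Control, was -0.53 for Ctsk (95% interval -1.47 to 0.42) and between -0.16 and -0.02 for the other 4. None was called, where 0.963% of listed genes were.

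**Figure D3:**
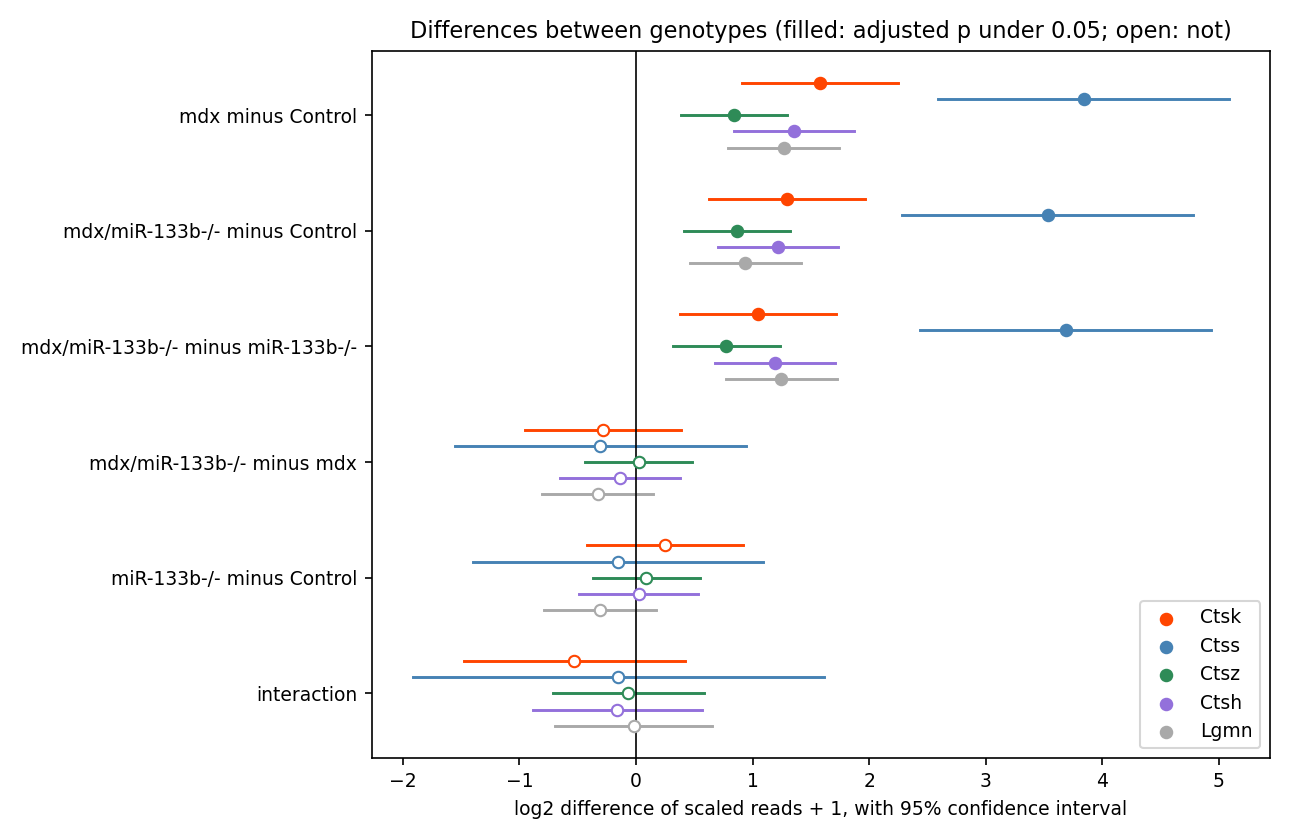
Log2 differences of scaled reads + 1 with 95% confidence intervals (x axis) for each protease in the 5 comparisons and the interaction (y axis). The 15 intervals of the 3 comparisons of an mdx-carrying genotype with one that lacks mdx lie above 0, and the 15 others include 0.

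The libraries of a genotype also differed from each other, and in mdx/miR-133b-/- Ctsk was not low in the same library as the other 4. The second mdx/miR-133b-/- library was below its genotype mean by 1.91 on the log2 scale for Ctss, 0.68 for Ctsz, 0.67 for Ctsh and 0.47 for Lgmn, and by 0.03 for Ctsk. The fourth was below it by 1.13 for Ctsk but above it by 0.24 for Ctss. In the third miR-133b-/- library, by contrast, every protease was below the genotype mean. Its log2 deviations were -0.62 for Ctsk, -1.18 for Ctss, -0.23 for Ctsz, -0.16 for Ctsh and -0.07 for Lgmn. Over all 16 libraries, deviations from the genotype mean had a Pearson r of 0.89 between Ctss and Ctsz, 0.79 between Ctsz and Ctsh, 0.70 between Ctss and Lgmn, 0.62 between Ctss and Ctsh, 0.59 between Ctsh and Lgmn and 0.58 between Ctsz and Lgmn. For Ctsk the r was 0.42 with Ctsh, 0.24 with Ctsz, 0.02 with Ctss and 0.02 with Lgmn. These are descriptions over 16 libraries whose genes share a scaling factor, and no test of the difference between the r values was made.

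The listed macrophage markers varied between libraries along with Ctss, Ctsz, Lgmn and Ctsh. Of the 20 markers, 10 are listed, and 9 of the 10 were called higher in mdx than in Control, beside 44.5% of all listed genes. The 10 markers had a median log2 difference of 2.49. Those with the smallest p were Ms4a7 (4.10), Adgre1, which encodes F4/80 (2.5), and C1qb (2.24). The tenth, Mrc1, the mannose receptor, was at 0.33 (limma adjusted p = 0.234). Their summed level was 3425 to 12174 scaled reads in mdx/miR-133b-/-, 5596 to 8741 in mdx, 901 to 2425 in miR-133b-/- and 1400 to 1967 in Control muscle, and no marker was at 0 in any library. The lowest mdx/miR-133b-/- sum was that of the second library, the highest miR-133b-/- sum that of the fourth and the highest Control sum that of the first. Deviations of the 10 markers' mean log2 level had an r of 0.92 with Ctss, 0.86 with Ctsz, 0.83 with Lgmn and 0.75 with Ctsh, against 0.25 with Ctsk (Spearman's rho 0.85, 0.86, 0.83, 0.74 and 0.18). Without the 2 libraries farthest from the median marker deviation, the second mdx/miR-133b-/- and the fourth miR-133b-/- library, r was 0.87, 0.90, 0.71, 0.72 and 0.38 in the same order. Of the other gene lists only the fibroblast markers below were given an r, and no r over all listed genes is set beside these. The second mdx/miR-133b-/- library was also lowest of its genotype in the sum of the regenerating fibre genes (777 scaled reads). The fourth was lowest for the fibroblast markers and the class II antigen presentation genes, and the third for the mature fast fibre genes. In whole muscle, more cells of a type and more transcript per cell cannot be told apart.

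The 3 listed fibroblast markers of 8, Pdgfra (1.30), Lum (1.22) and Fap (0.75), were all called higher in mdx than in Control, beside 44.5% of all listed genes. With relative log expression factors Fap was not called (0.39, limma adjusted p = 0.108). The summed level of the 3 markers was 2478 to 3434 scaled reads in mdx/miR-133b-/-, 2544 to 3182 in mdx, 1010.1 to 1665 in miR-133b-/- and 1072 to 1867 in Control muscle. Deviations of their mean log2 level had an r of 0.57 with Ctsk and of 0.43 with Ctsh, 0.33 with Ctsz, 0.21 with Ctss and 0.13 with Lgmn (rho 0.55, 0.46, 0.45, 0.34 and 0.18). Without the 2 libraries farthest from the median, the r with Ctsk was 0.61. The part of either marker list in the protease differences was not tested beyond the ratios given next.

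**Figure D4:**
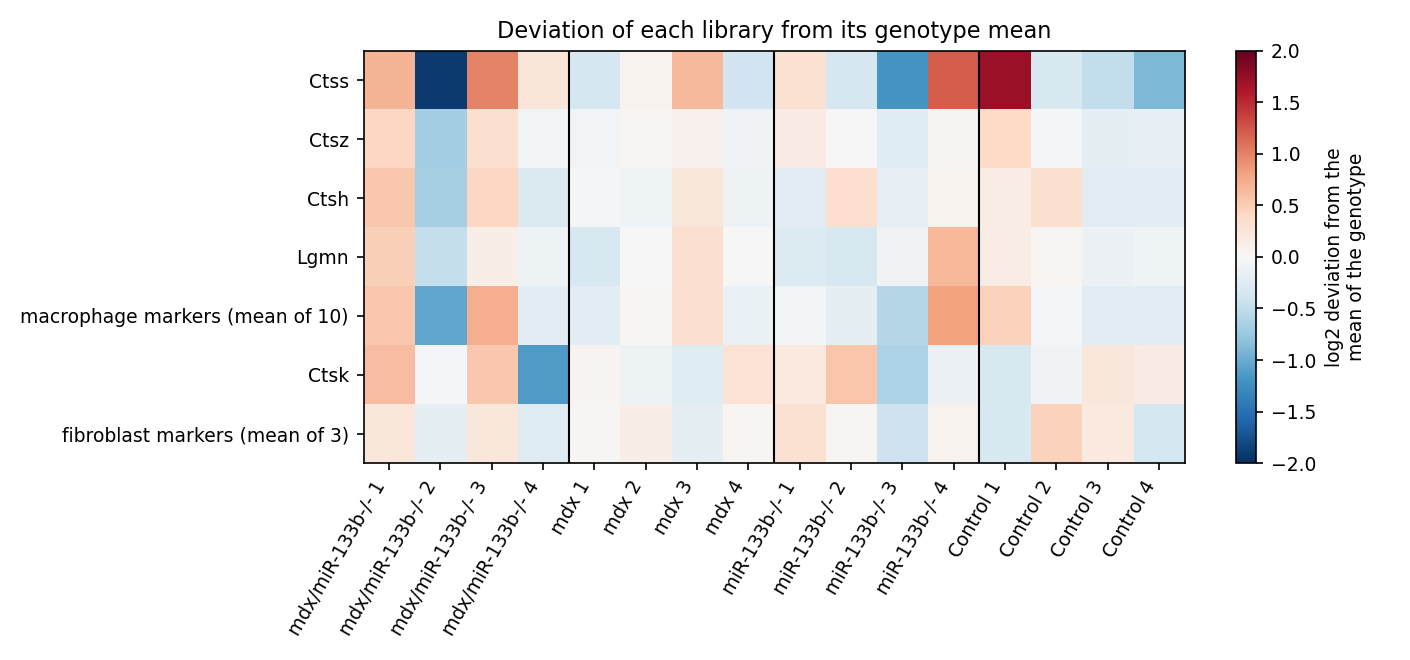
Log2 deviation of each library (x axis) from the mean of its genotype, as colour from -2 (blue) to 2 (red), for the proteases and for the mean of the 10 macrophage and 3 fibroblast markers (y axis). The second mdx/miR-133b-/- library is blue for Ctss, Ctsz, Ctsh, Lgmn and the macrophage markers, and near 0 for Ctsk.

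Set against the 10 listed macrophage markers of the same library, 3 proteases rose less than those markers did. Every listed gene, protease or marker, differed at least 1.72-fold with mdx where miR-133b was lost. Markers that moved little there cannot be in the reference, so its rise may be larger than that of all 20 markers. The ratios and their p-values hold for the listed markers alone, and the full list was not tested. The log2 ratio of Ctsz to the markers' mean was 0.42 ± 0.17 in mdx and 2.11 ± 0.05 in Control, a difference of -1.70. For Ctsh it was 0.31 ± 0.14 and 1.5 ± 0.27, a difference of -1.19, and for Lgmn 2.34 ± 0.10 and 3.62 ± 0.21, a difference of -1.27 (SD, n = 4 each). In these 3 genes the libraries did not overlap, and the exact permutation p of 0.0286, the smallest that 70 splits allow, became 0.0476 after adjustment over the 5 ratios. Ctss stood at 0.77 ± 0.24 in mdx and -0.53 ± 0.85 in Control, and Ctsk at -0.15 ± 0.44 and 0.81 ± 0.56. Neither passed (exact permutation p = 0.0857 each, adjusted 0.0857), the first Control library overlapping mdx in both. Leaving out any 1 library kept the sign of all 5 differences, between 1.07 and 1.71 for Ctss and between -1.22 and -0.78 for Ctsk.

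**Figure D5:**
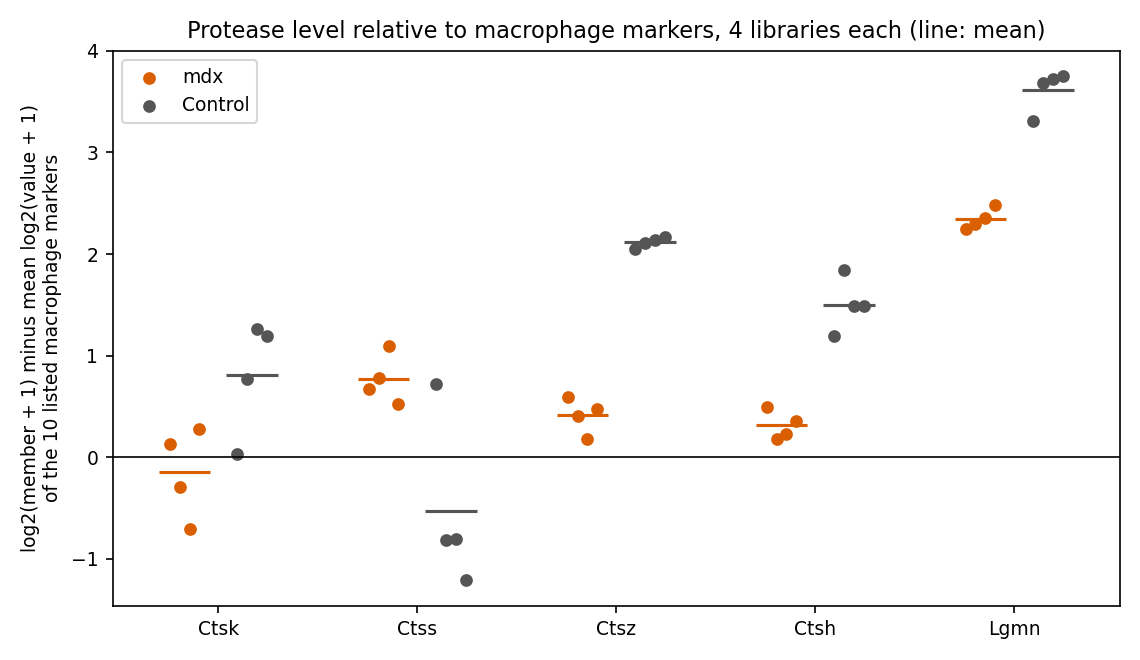
Log2(scaled reads + 1) of each protease (x axis) less the mean log2 level of the 10 listed macrophage markers in the same library (y axis), for 4 mdx libraries on the left and 4 Control libraries on the right of each gene, with the mean as a line. Mdx lies below Control for Ctsz, Ctsh and Lgmn, and the first Control library lies within the mdx range for Ctsk and Ctss.

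Pearson r over the 16 libraries was taken first of log2 levels and then of deviations from the genotype mean, as descriptions. The r of log2 levels takes in the genotype difference on which the listed genes were chosen. The genes most like each protease were sought among the listed genes with an approved name. For Ctss they were Cd48, a leukocyte surface protein (0.99), Mpeg1, a pore-forming protein of macrophages (0.98), and C3ar1, a complement receptor (0.98), and by deviations Lyz2, Cd48 and Mpeg1 (0.95 each). For Ctsz they were Lyz2, lysozyme (0.97), Ctss (0.96) and Nckap1l, a haematopoietic actin regulator (0.96), which also led by deviations (0.89, 0.89 and 0.88). For Ctsh they were the complement component gene C1qb (0.96), Lcp1, the leukocyte plastin (0.96), and Unc93b1 (0.95), and by deviations Mmp12, macrophage elastase (0.81), P2rx4 (0.79) and Inpp5d (0.79). For Lgmn they were Prkcd (0.97), Csf1r, the receptor for macrophage colony-stimulating factor (0.97), and Fcer1g (0.96), and by deviations Apoe (0.88), Grn, the precursor of lysosomal granulins (0.86), and Fcer1g (0.85). Ctsk differed in the genes it was paired with: Postn, the matrix protein periostin (0.94), Angptl1 (0.93) and Plagl1 (0.91), and by deviations Cdh11, a cadherin of mesenchymal cells (0.88), Postn (0.85) and Nrk (0.84).

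Few other lysosomal genes are in the table. None of 6 other cysteine cathepsins, 5 aspartic and serine cathepsins, 7 cystatins (the inhibitors of these proteases), 6 genes of mannose 6-phosphate sorting and 4 transcription factors of the MiT family is listed, and they were not analysed here. Among lysosomal hydrolases, Lipa, the acid lipase, rose in mdx over Control by 0.71 on the log2 scale (limma adjusted p = 0.0165), while Idua, the iduronidase, was at 0.06 (0.778). With relative log expression factors Lipa was not called (0.35, 0.151). Of 19 genes of the lysosome membrane and its acidification 5 are listed and all 5 rose, with a median log2 difference of 1.70 where all listed genes had 0.44; with those factors Cd63 was not called (0.42, 0.0666). Named by the smallest p, these were Tcirg1, a subunit of the proton pump (1.24), Atp6v0d2, another pump subunit (4.88), and Laptm5, a lysosomal membrane protein of blood cells (2.11). Between mdx/miR-133b-/- and mdx, Idua (-0.59, limma adjusted p = 0.0450) and Tcirg1 (-0.70, 0.0319) were called lower, and neither was after removal of the GC and length trend (adjusted p = 0.190 and 0.319) or without any one of the 4 mdx libraries or of mdx/miR-133b-/- libraries 2 and 4. Idua also lost the call without mdx/miR-133b-/- library 3.

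Some listed genes that work beside these proteases or on which they act were also higher in mdx, as were 44.5% of all listed genes. Genes of these lists that differed little between mdx/miR-133b-/- and miR-133b-/- cannot be in the table. Cathepsin S trims the invariant chain, and the 4 listed genes of 8 in the class II antigen presentation list, Cd74 (2.48), H2-Aa (2.65), H2-Ab1 (2.5) and H2-Eb1 (2.47), were all called higher in mdx than in Control. Between mdx/miR-133b-/- and mdx none of the 4 was called (-0.98 to -0.58). Endosomal Toll-like receptors are cut by lysosomal proteases before they signal, and the 3 listed of 5, Tlr7 (2.61), Tlr13 (2.35) and their transporter Unc93b1 (1.60), rose, Tlr7 without a call in limma-voom (adjusted p = 0.0699). Of 6 fibrillar collagens and elastin, which are substrates of cathepsins K and S, Col3a1 (0.92) and Col5a2 (1.17) are listed and both rose. These differences are on the log2 scale and each was called by limma over the 831 genes.

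Markers of other cells were few. Of 11 osteoclast genes Atp6v0d2 alone is listed, and of 6 dendritic cell markers Itgax alone, which rose by 4.31. Ighm, the listed one of 5 B cell markers, was at -1.13 in mdx minus Control (limma adjusted p = 0.0763). Flt1, the listed one of 5 endothelial markers, fell by 0.75. Of 9 mature fast fibre genes 4 are listed: Myh4 (-0.60, limma adjusted p = 0.0472) and Ckm (-0.45, 0.0409) passed, and Actn3 (-0.52) and Pvalb (-0.22) did not. Both calls were lost when any one of mdx libraries 2 and 4 and Control libraries 1, 2 and 3 was left out, that of Myh4 also without mdx library 3 or Control library 4, and that of Ckm without mdx library 1. Neither passed without the variance trend (adjusted p = 0.0639 and 0.0561), nor did Myh4 among genes with a mean of at least 100 (0.0522) or Ckm after removal of the GC and length trend (0.0694). In mdx/miR-133b-/- against mdx, Ighm (-1.64, limma adjusted p = 0.0419), Ckm (-0.63, 0.0270), Pvalb (-0.78, 0.0240) and Actn3 (-0.90, 0.0155) were called lower and Myh4 (-0.56, 0.138) was not. None of these 4 calls was kept after removal of the GC and length trend (adjusted p between 0.0952 and 0.130) or without mdx library 3. Without mdx library 1 or mdx/miR-133b-/- library 4, Actn3 alone of the 4 was called. Ighm was also not called without mdx library 2 or mdx/miR-133b-/- library 2, in limma-voom (0.101) or without the variance trend (0.0636), nor Ckm and Pvalb without mdx/miR-133b-/- library 3, nor Ckm without mdx library 4. In miR-133b-/- against Control no gene of any of these lists was called. Neutrophil, T cell, mast cell and satellite cell markers are not among the listed genes and were not analysed here.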

How the data were processed

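RNA of whole tibialis anterior was sequenced, and the submitters' processing notes name HISAT2, HTSeq and the build GRCm38. The deposited signal values are read counts per gene that the authors multiplied by 1 factor per library. In all 16 libraries 100% of the values were whole reads, to within 0.001 read, after division by that factor. The deposited table holds 831 genes, all matched to GENCODE M21. Whether counting used strand is not given in the sources used here.

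Levels were analysed as log2(value + 1) with limma 3.58.1 (R 4.3.3), fitted to all 16 libraries with 1 mean per genotype and empirical Bayes moderation with a variance trend. Adjusted p-values (Benjamini-Hochberg) cover the whole table, with a threshold of 0.05. Ratios within libraries were tested by exact permutation (scipy 1.17.1). The limma fit was tested on simulated data, and the permutation test on made-up numbers with a known answer. edgeR was not run; limma-voom was run as an alternative on the reads recovered by dividing by the factors. Named genes were the 5 proteases in full, the 3 genes of each list with the smallest p in mdx minus Control (all of a list with 4 or fewer) and the 3 most correlated genes per protease; Mrc1, Cd63 and Myog were named after their values were seen, and 1 gene that the rule names is not reported here. The proteases and the gene lists were chosen with earlier results of these data known. Replicate numbers were checked for pairing. Promoter and microRNA sequences came from RefSeq (GRCm38.p6); 4 of the 5 genes matched a promoter. Intervals cover the spread between libraries.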

Additional observations from a re-analysis of the deposited data

Results flagged for a closer look

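In each of the 20 groups of 4 libraries (5 proteases in 4 genotypes) the gap from the highest and from the lowest library to its neighbour was set against the whole range and with Dixon's 95% critical value for 4 samples. Chance flags about 1 in 20 such groups. The first Control library stood apart for Ctss, with 127.9 scaled reads where the other Control libraries had 20.2 to 30.95. Its macrophage marker sum, 1967 scaled reads, was the highest of Control. The third mdx library stood apart for Ctsh, with 485.1 scaled reads where the other mdx libraries had 386 to 399. Its macrophage marker sum, 8741 scaled reads, was the highest of mdx. Both proteases were called in mdx against Control with either library left out.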

How the results depend on the processing

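Leaving out each library in turn changed no call and no direction of a called difference in the 280 results of single proteases so recomputed. Of 325 other results of single proteases under other settings (pseudocounts of 0.5 and 10, a mean value of at least 100, limma without its variance trend, limma-voom on the reads, other scaling factors, the compared groups alone, the replicate block, and removal of trends of value with GC content and length), 323 kept their direction where called and their side of the threshold. The 2 others came with relative log expression factors, where 3 proteases in place of 5 were called in mdx/miR-133b-/- minus miR-133b-/-, without Ctsk (0.50) and Ctsz (0.22). Those factors moved the median log2 difference of all listed genes in mdx minus Control to 0.09, against 0.44 with the authors' factors. The calls moved to 260 higher and 270 lower, against 370 and 180. Ctsz was then at 0.48 (limma adjusted p = 0.0438) and Ctss at 3.49. All 5 proteases stayed called, Ctsz close to the threshold. Removal of the GC and length trend placed Ctsz at 1.52 in mdx/miR-133b-/- minus miR-133b-/- and at 1.66 in mdx/miR-133b-/- minus Control (0.54, without a call, in mdx/miR-133b-/- minus mdx), and cut the listed genes called in mdx/miR-133b-/- minus mdx to 55, against 162; without mdx/miR-133b-/- library 3 or 4 these were 70 and 49, and without mdx library 1, 3 or 4 they were 71, 56 and 84. Listed genes called in the interaction were 14 with relative log expression factors, 5 after trend removal, 4 with a mean of at least 100, 15 without mdx/miR-133b-/- library 1 and 110 without miR-133b-/- library 2, against 8. The cause of these shifts was not tested.

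Groups drawn from the description codes left 0 proteases called in any comparison. The log2 differences in mdx minus Control were then -0.16 for Ctsk, -0.60 for Ctss, -0.24 for Ctsz, -0.039 for Ctsh and 0.06 for Lgmn. In mdx/miR-133b-/- minus Control they were -0.34 for Ctsk, -0.55 for Ctss, -0.29 for Ctsz and -0.24 for Ctsh, and Lgmn kept its sign. In mdx/miR-133b-/- minus miR-133b-/- they were -0.29 for Ctsk and -0.11 for Ctsh, but 0.67 for Ctss, 0.11 for Ctsz and 0.31 for Lgmn.

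The replicate numbers did not pair the libraries: same-numbered libraries of 2 genotypes had correlations of -0.28 to 0.25, 2 of 24 pairs were over 0.1, and 1 of 16 libraries was best matched by its own number. With the replicate number as a block, 5 proteases were called in mdx minus Control, in mdx/miR-133b-/- minus miR-133b-/- and in mdx/miR-133b-/- minus Control, and 0 in the other comparisons. Under the block, Ckm was not called in mdx minus Control (adjusted p = 0.0604), nor Idua (0.0615) and Tcirg1 (0.0504) in mdx/miR-133b-/- minus mdx, nor Lipa in mdx minus Control with the GC and length trend also removed (0.0514). The ratio tests gave 0 pairs and 3 ratios to macrophage markers with pseudocounts of 0.5 and 10, and 3 without Lyz2 and Gpnmb. With 3 libraries against 4 the exact test cannot go below 0.0571, so ratios with a library left out have no call. The planned edgeR fit was not run.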
